A study of Bos taurus with 12 samples.

Results

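Transcripts of 10 genes that are best known from the oocyte were examined in bovine expanded blastocysts produced in vitro. The genes were GDF9, ZP2, ZP3, ZP4, NLRP5, ZAR1, OOEP, PADI6, TLE6 and DPPA3, chosen by name among the 32637 genes of the count table, and all 10 were found there. RNA-seq libraries had been made from 6 pools of female and 5 pools of male embryos, each pool holding 2 cut embryos of one sex, so that a replicate stands for a pool. The embryos came from slaughterhouse ovaries fertilised with semen of bulls used in rotation, were collected as expanded blastocysts on Day 7 or Day 8, and carried no treatment. Each was cut so that one portion, with inner cell mass, trophectoderm and zona pellucida, gave RNA and the other was sexed by PCR. A further sample of 4-cell embryos sequenced for isoforms was not analysed here, and no oocyte or earlier stage stands beside the blastocysts.

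A mammalian oocyte stores RNA and protein that carry the embryo through its first divisions, and most of the stored RNA is degraded around the time the embryonic genome becomes active. Among the products of these genes are the zona pellucida glycoproteins that coat the oocyte, a growth factor secreted toward the cumulus cells, an RNA-binding protein, the subcortical maternal complex beneath the oocyte membrane, and a chromatin protein that protects DNA methylation after fertilisation. Some of them, DPPA3 among them, are also known to be transcribed by embryonic or germ cells. The counts do not separate RNA stored by the oocyte from RNA made by the embryo, and in pooled tissue fewer cells of a type cannot be told apart from less RNA per cell.

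The libraries held from 6664112 to 16162985 counted reads in females (median 11067562) and from 9942952 to 21392764 in males (median 14358278). A count of 3, taken as the limit below which a gene was not read as present, corresponded to 0.189 to 0.413 CPM (a count relative to its library total, on one scale for all libraries) in females and 0.145 to 0.317 CPM in males. The scaling used the TMM factors of edgeR. All 6 inner cell mass markers found in the table and all 10 trophectoderm markers exceeded 3 counts in every library, as did 5 of 7 hypoblast markers. Of 7 cumulus cell markers, 1 exceeded 3 counts in every library, FSHR with 58 to 359 counts, and AMH and FOXL2 stayed at or under 3 in all. CYP19A1, TNFAIP6 and HAS2 reached 42, 45 and 61 counts in their highest libraries. Of 6 sperm markers none exceeded 3 counts in every library, and ODF1 and AKAP4 had 0 counts throughout. TNP1, TNP2 and PRM1 reached 82, 67 and 22 counts in their highest libraries. Male replicate 5 stood apart from the other libraries, with the fewest genes counted (14937) and the highest summed trophectoderm marker level, 36145 CPM against at most 23154 CPM elsewhere. KRT8 made up 20142 CPM of that sum. CDX2, KRT18 and DAB2 were also highest in this library, while GATA2, GATA3, TFAP2A, TFAP2C, PTGS2 and LGALS3 were each higher in another one.

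Of the 10 genes, 4 exceeded 3 counts in every library, namely DPPA3, OOEP, ZP3 and TLE6. For comparison, 34.1% of all genes in the table did so, 11130 of 32637. The remaining 6, GDF9, ZP2, ZP4, NLRP5, ZAR1 and PADI6, exceeded 3 counts in between 1 and 4 of the 11 libraries each and had 0 counts in between 2 and 6. No gene of the 10 was at or under 3 counts in all libraries. The same 4 genes were above the limit in every library with a limit of 10 counts and when counts were scaled down to the smallest library. At the limit of 10 counts, ZP4, ZAR1 and PADI6 were above it in no library, with at most 7, 9 and 4 counts. The members made up from 0.0138% (male replicate 5) to 0.0501% (female replicate 3) of a library's counts. DPPA3 alone took from 84.8% to 94.8% of the counts on the 10 genes. That is a share of reads and not of transcripts, since exon lengths were not at hand, and for the same reason counts and CPM give no order of transcript level between the genes. Where genes are picked below by their mean CPM, this orders them by reads alone.

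**Figure D1:**
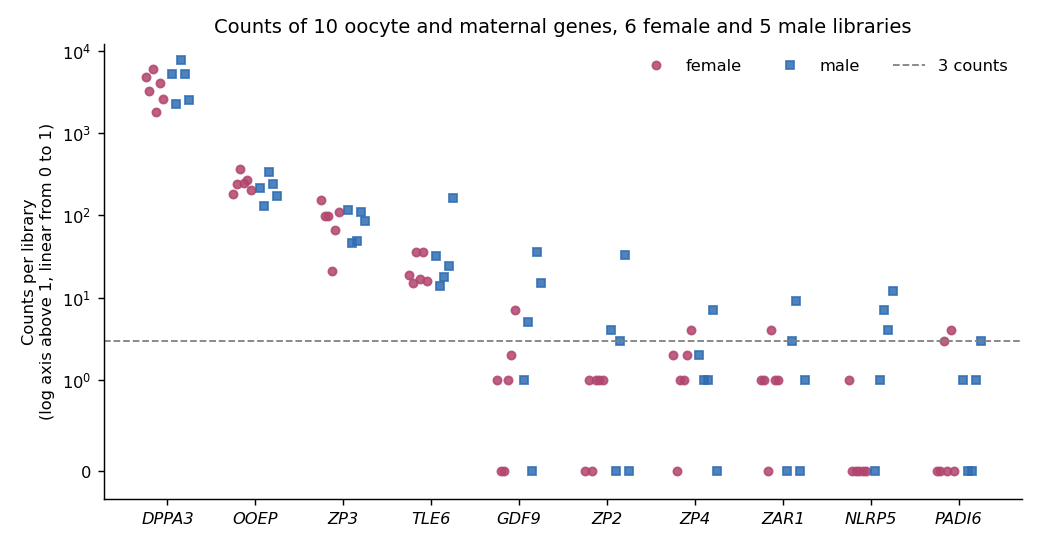
Counts of the 10 genes in each library, on a vertical axis that is logarithmic above 1 count and linear below it, with circles for the 6 female and squares for the 5 male libraries and a dashed line at 3 counts. DPPA3, OOEP, ZP3 and TLE6 lie above the line in all 11 libraries, and the other genes lie on both sides of it.

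The edgeR quasi-likelihood test compared males with females over the 12802 genes kept by its filter on low counts, with the first number of the library name as a block. Genes were called sex-biased at a Benjamini-Hochberg false discovery rate under 0.1 and a fold change over 1.5. By this rule 1.91% of the tested genes were called (245), with a median log2 fold change of 0.01 over all tested genes. DPPA3, OOEP, ZP3 and TLE6 passed the filter. None of the 4 was called, none had an unadjusted p under 0.05 and DESeq2 called none, while over all tested genes 1692 had an unadjusted p under 0.05. The median log2 fold change of the 4 was -0.18, and 2 of them were higher in males by estimate, as were 6470 of the 12802 tested genes. In each of the 4 the CPM of the sexes overlapped, while 3.31% of all tested genes had sexes that did not overlap (424 of 12802).

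DPPA3 (also known as Stella) encodes the maternal chromatin protein that shields methylated DNA of the zygote from demethylation. It lies on chromosome 5 of ARS-UCD2.0 at 101333531 to 101341323 and had between 1780 and 7631 counts in a library. Female libraries ran from 163 CPM through a median of 353 CPM to 427 CPM. Male libraries had 434, 234, 491, 412 and 121 CPM in the order of their replicate numbers. The lowest and the highest library were thus both male, 4.05 times apart, and all female values fell between them. Female libraries averaged 325 ± 102 CPM (mean ± SD, n = 6) and male libraries 339 ± 155 CPM (n = 5). The log2 fold change, male over female, was 0.08 with a 95% interval from -0.64 to 0.80 (standard error 0.33, adjusted p = 0.952 in the edgeR test). The sign of this estimate turned when any of 5 libraries was left out, with values from -0.18 to 0.32 over the 11 fits.

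OOEP, a KH-domain subunit of the subcortical maternal complex, lies on chromosome 9 at 12765347 to 12766525. It had between 129 and 361 counts per library. The female libraries had 12.8 CPM at the lowest, 26.3 CPM at the median and 33.6 CPM at the highest. In males the values were 17.7, 13.6, 21.4, 18.9 and 8.19 CPM for replicates 1 to 5. Every male lay below the female median, while female replicates 1 and 6 lay among the males. Female libraries averaged 23.3 ± 8.21 CPM (mean ± SD, n = 6) and male libraries 16.0 ± 5.17 CPM (n = 5). The log2 fold change of -0.46 had a 95% interval from -1.09 to 0.17 (standard error 0.29, adjusted p = 0.541 in the same edgeR test), which takes in both 0 and differences past the threshold fold of 1.5. Over the fits without one library it stayed between -0.65 and -0.27.

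TLE6 encodes another subunit of the same complex and is a member of the Groucho-related family of corepressors by sequence. The annotation places it on chromosome 7 at 20772367 to 20824372 from 8 predicted transcript models and no curated one. Female libraries ran from 1.01 CPM through a median of 1.98 CPM to 3.60 CPM. Male libraries had 2.65, 1.48, 1.16, 1.91 and 7.85 CPM. Male replicate 5, with 162 counts, was therefore above all the others, and the remaining 10 libraries held from 14 to 36 counts. Female libraries averaged 2.11 ± 0.941 CPM (mean ± SD, n = 6) and male libraries 3.01 ± 2.76 CPM (n = 5), and 1.80 CPM in the males without replicate 5. The log2 fold change was 0.37 with a 95% interval from -0.84 to 1.59 (standard error 0.56, adjusted p = 0.832 from edgeR), and -0.18 without male replicate 5 (standard error 0.49, adjusted p = 0.893 from edgeR). The gene overlaps TLE2 by 5392 bases and ZNF77 by 14067 bases, and since the kit is not stated to keep the strand, reads of overlapping genes may not be separable. TLE2 was at 1.94 CPM in male replicate 5, above the range of the other libraries, from 0.550 to 1.74 CPM. ZNF77 was at 13.0 CPM there and from 11.2 to 18.2 CPM elsewhere, so its level in male replicate 5 lay within the range of the rest. The part of the high trophectoderm marker sum of this library, mostly KRT8, in its TLE6 value was not tested.

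ZP3, a zona pellucida glycoprotein known as a sperm receptor in the mouse, was the zona gene counted throughout. It lies on chromosome 25 at 34446154 to 34453895. Counts ran from 21 to 155, and female libraries from 2.89 CPM through a median of 7.00 CPM to 11.8 CPM. Male libraries had 9.60, 4.86, 3.15, 8.74 and 4.17 CPM. The lowest and the highest value were both female, replicates 4 and 1, and the males lay between them. Female libraries averaged 7.64 ± 3.17 CPM (mean ± SD, n = 6) and male libraries 6.10 ± 2.88 CPM (n = 5). The log2 fold change was -0.43 with a 95% interval from -1.16 to 0.31 (standard error 0.34, adjusted p = 0.644 in the edgeR test). Without one library in turn it ran from -0.67 to -0.27.

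**Figure D2:**
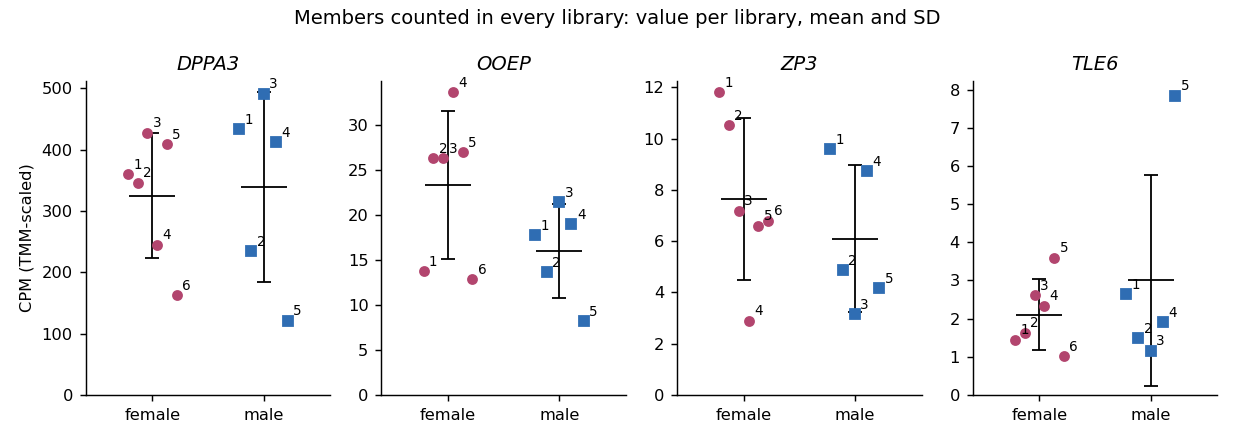
CPM of the 4 genes counted in every library, 1 panel and 1 vertical scale per gene, with 1 point per library labelled by its replicate number, the mean as a horizontal line and the SD as whiskers. The sexes overlap in each panel, and male replicate 5 is lowest for DPPA3 and OOEP (121 and 8.19 CPM) and highest for TLE6 (7.85 CPM).

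The spread of these 4 genes between libraries, beyond sex and library number, was set beside that of all tested genes. The biological coefficient of variation from edgeR was 0.346 for OOEP, 0.386 for DPPA3, 0.396 for ZP3 and 0.590 for TLE6, where the median over all tested genes was 0.348 and the quartiles 0.258 and 0.497. TLE6 was thus above the upper quartile, at a percentile of 83.9, and the other 3 lay within the quartiles. With sex in the model, 0.00781% of all tested genes differed between the library numbers in the edgeR test at an adjusted p under 0.1. This was a single gene, TAF10, a subunit of the TFIID complex named here because it was the only call. None of the 4 members was called in edgeR, where none had an unadjusted p under 0.05. DESeq2 called none either, with an unadjusted p of 0.0447 for ZP3 in its likelihood ratio test (adjusted p = 0.537). The adjusted p of the 4 in edgeR's test with Benjamini-Hochberg adjustment was 0.693 for ZP3, 0.759 for OOEP, 0.793 for TLE6 and 0.865 for DPPA3. Over all tested genes 887 had an unadjusted p under 0.05 in that comparison, and DESeq2 called 90.

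The remaining 6 genes had too few counts for the fit. They were compared by two-sided exact permutation tests of the mean CPM over all 462 ways to place the sex labels, whose smallest p is 0.00216, and the 6 p values are unadjusted. These tests place the labels across library numbers, unlike the fit, which has the library number as a block. The other subunits of the subcortical maternal complex among the 10 genes were both in this group. NLRP5 (MATER), an NLR-family protein of the complex, lies on chromosome 18 at 63478435 to 63493230. It had 1 count in female replicate 1 and 0 counts in the other females, and 0, 1, 7, 4 and 12 counts in the males. Males 3, 4 and 5 were above 3 counts and the other males were in the range of the females. Male libraries averaged 0.291 ± 0.240 CPM (mean ± SD, n = 5) and female libraries 0.0127 ± 0.0311 CPM (n = 6), with an exact permutation p of 0.0152, unadjusted over 6 tests. The exact permutation p ran from 0.00476 to 0.0476 when each library was left out, an alternative chosen after seeing the data. With the labels exchanged within library numbers alone, also added after seeing the data, the exact permutation p of NLRP5 was 0.0278 over 108 ways, and that of the other 5 genes ran from 0.102 (GDF9) to 0.806 (ZP4). In edgeR's fit of every gene with at least 1 count, the adjusted p of NLRP5 across all genes was 0.489, and NLRP5 was not called. The gene had 25 counts over all libraries together, and it has relatives of similar sequence in the NLRP family to which short reads can also align. A lncRNA gene that overlaps it by 8366 bases, LOC132342887, had 0 counts in all libraries.

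PADI6, a peptidylarginine deiminase of the oocyte's cytoplasmic lattices, had the fewest reads of the 10, with 12 counts in all libraries together. It is annotated on chromosome 2 at 135238151 to 135258394 from 1 predicted model. Female replicate 5 had 4 counts, female replicate 3 had 3, and the other females had 0. The males had 1, 0, 0, 1 and 3 counts. The highest library thus stood 1 count above the limit, and the sexes overlapped (exact permutation p = 0.727). RCC2, a gene that ends 868 bases away from it, was counted at 306 to 2170 reads, and the microRNA gene MIR2358, 1944 bases away, had 0 counts throughout.

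Of the zona glycoproteins, ZP2 and ZP4 were near the limit in most libraries. ZP2, on chromosome 25 at 19019145 to 19055627, encodes the protein whose cleavage after fertilisation is known to block further sperm. It had at most 1 count in any female library. In males the counts were 4, 0, 3, 33 and 0, and the value of male replicate 4, 2.62 CPM, was 7.92 times that of the next library. The exact permutation p was 0.108, and 0.448 without male replicate 4. ZP4, on chromosome 28 at 10614232 to 10621499, had between 0 and 4 counts in females and 2, 1, 1, 7 and 0 counts in males (exact permutation p = 0.773). Female replicate 6 and male replicate 4 were the libraries above 3 counts, with 4 and 7 counts.

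GDF9, a growth factor of the TGF-beta superfamily by which the oocyte signals to the cumulus cells, lies on chromosome 7 at 44442456 to 44445396. It had 7 counts in female replicate 6 and at most 2 in the other females. Males had 1, 5, 0, 36 and 15 counts, so that 3 of the 5 males and 1 of the 6 females were above the limit. Mean CPM was 0.840 ± 1.17 (SD, n = 5) in the male libraries and 0.142 ± 0.166 (SD, n = 6) in the female ones (exact permutation p = 0.0909). Without male replicate 4 the male mean was 0.334 CPM and the exact permutation p 0.290, and it was 0.0429 without male replicate 1 and 0.0238 without male replicate 3. ZAR1, an RNA-binding protein that represses the translation of stored mRNA, lies on chromosome 6 at 67172184 to 67188089. It had 4 counts in female replicate 4 and at most 1 in the other females, and 0, 3, 9, 0 and 1 counts in the males (exact permutation p = 0.773). The gene overlaps FRYL by 8698 bases, and FRYL was counted at 177 to 556 reads in the same libraries. SLC10A4, 810 bases away, had between 0 and 5 counts. FRYL was at 8.58 CPM in male replicate 5 and from 17.5 to 36.0 CPM in the others. The part of FRYL reads in the ZAR1 counts was not tested.

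Because several low members were highest in one library, the libraries were also described one by one. The 6 low genes together had between 2 and 13 counts in a female library and 8, 10, 20, 81 and 31 counts in the males. Male replicate 4 had 8 of the 10 genes above 3 counts, and 7 after scaling to the smallest library. The other libraries had from 4 to 6, with and without this scaling, whose use for the number of genes per library was added after seeing the data. GDF9, ZP2 and ZP4 had their highest CPM in male replicate 4, so 3 of the 6 low members did. Among the genes above 3 counts in any library, male replicate 4 held the highest CPM of 10.7% of them, and of 9.51% of those dropped by the filter on low counts. With CPM from library totals it also held that of 3 low members, beside 474 of the 6165 such genes dropped by the filter.

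**Figure D3:**
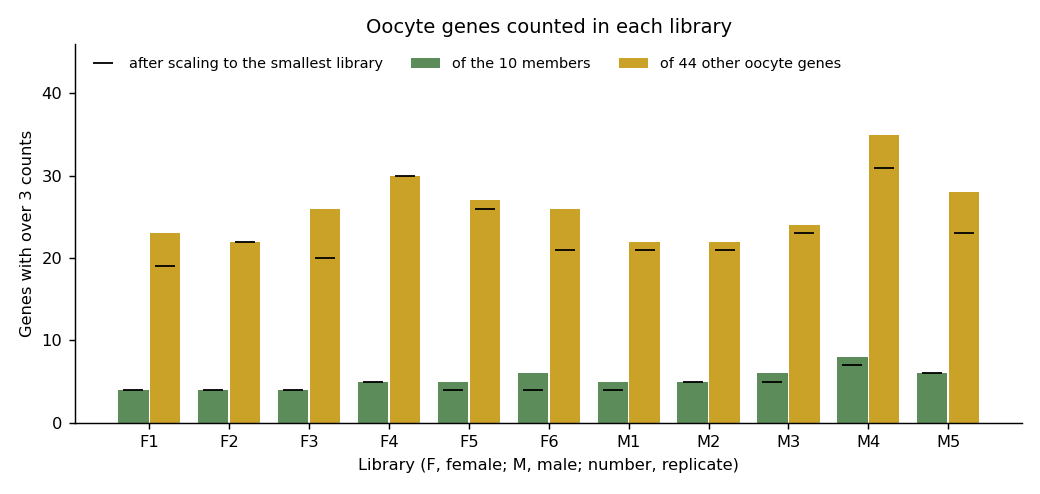
Number of genes with over 3 counts in each library, for the 10 members and for 44 other oocyte genes, with a short black line at the number left after counts were scaled to the smallest library. Male replicate 4 (M4) is highest in both, with 8 members and 35 other genes. After scaling it has 7 members and 31 other genes, and female replicate 4 (F4) has 30 other genes.

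The other genes of oocyte and maternal programs were taken from lists made by name, of which 44 of 51 genes were in the table. Of these 44, 15 exceeded 3 counts in every library, near the share of all genes in the table that did so, 11130 of 32637 (34.1%). A further 27 exceeded the limit in some libraries, and FIGLA and CCNO in none. Among 3 secreted and zona-related genes none exceeded the limit in every library, and among 7 genes of the subcortical complex and its NLRP relatives 1 did, NLRP14. KHDC3L, a partner of OOEP in the complex and its neighbour 10466 bases away on chromosome 9, had at most 9 counts in any library. Of 6 oocyte transcription factors 2 exceeded the limit in every library, of 11 genes of maternal mRNA storage and decay 6, of 10 genes of meiosis and egg activation 3, and of 7 genes of maternal chromatin and nuclear import 3. The test across all genes took in 19 of the 44 and called none sex-biased, with 1 at an unadjusted p under 0.05 and none called by DESeq2. Their median log2 fold change was 0.05, with 11 of 19 higher in males by estimate. Over all 12802 tested genes 1692 had an unadjusted p under 0.05, and 6470 were higher in males by estimate.

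The 5 genes of these lists with the highest mean CPM were GTSF1, BTG4, AURKC, ZFP57 and CCNB3. GTSF1, a factor of the piRNA pathway, was at 219 ± 37.9 CPM in the female libraries (mean ± SD, n = 6) and at 233 ± 58.5 CPM in the male ones (n = 5). AURKC, the Aurora kinase of meiosis, was at 32.0 ± 5.98 CPM in the female libraries (mean ± SD, n = 6) and at 36.7 ± 5.73 CPM in the male ones (n = 5). ZFP57, a zinc-finger protein that keeps methylation at imprinted loci, was at 27.1 ± 5.26 CPM in the female libraries (mean ± SD, n = 6) and at 24.5 ± 8.34 CPM in the male ones (n = 5). None of the 3 passed the test, and their sexes overlapped. CCNB3, a cyclin of meiotic anaphase, was the one with an unadjusted p under 0.05, at 29.2 ± 9.81 CPM in the female libraries (mean ± SD, n = 6) and at 16.8 ± 6.95 CPM in the male ones (n = 5). Its log2 fold change of -0.73 had a 95% interval from -1.40 to -0.05 (standard error 0.31, adjusted p = 0.342 in the edgeR test). CCNB3 lies on the X chromosome, where the paper found female-biased genes to be enriched. The part of its chromosome in this value was not tested.

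**Figure D4:**
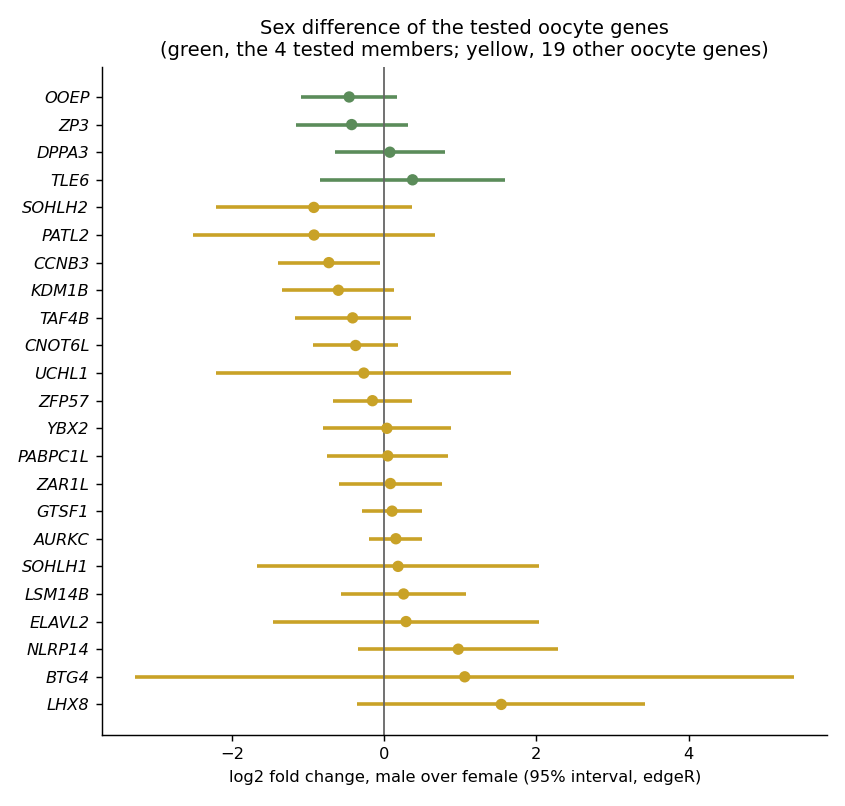
Log2 fold change, male over female, with its 95% interval from edgeR, for the 4 tested members and 19 other tested oocyte genes. The intervals of all 4 members include 0, and CCNB3, from -1.40 to -0.05, is the one gene whose interval does not.

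BTG4, the adaptor that brings maternal mRNA to the CCR4-NOT deadenylase, was the most uneven of these 5. It was at 332 CPM in male replicate 4, 109 CPM in female replicate 4 and 32.8 CPM in male replicate 5, and between 0.504 and 9.71 CPM in the other 8 libraries. BTG4 was not called by sex (log2 fold change 1.06, standard error 1.99, adjusted p = 0.870 from edgeR). Single libraries set its estimate, which ran from -0.35 without female replicate 6 to 2.52 without male replicate 3, was -0.24 without female replicate 5, 0.05 without male replicate 4, 2.31 without female replicate 1 and 2.49 without female replicate 4, and was called in none of these fits.

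The genes named next, apart from the members, were picked after their values were seen. BMP15, the partner of GDF9, had 122 counts in each of male replicates 4 and 5, 18 in female replicate 4 and at most 3 in the rest. MOS, the kinase that holds the egg in meiotic arrest, had 44 counts in male replicate 4 and at most 6 elsewhere. Both thus had few or no reads in most libraries and clear counts in the library where GDF9 and ZP2 were highest. Of the listed genes other than the members, 13 of 42 above the limit (31.0%) had their highest CPM in male replicate 4, and 9 of the 23 dropped by the filter (39.1%), beside the 10.7% and 9.51% of all genes given above. With CPM from library totals these were 11 of 42 and 9 of 23, beside 1215 of 18967 and 474 of 6165 of all genes by that measure. The library was singled out on values of these genes, so the counts are a description. All 10288 genes with at least 30 counts in male replicate 4 were ranked by the ratio of their CPM there to that of the highest other library. ZP2 was at rank 3, MOS at 5, GDF9 at 7, ELAVL2 at 8 and BTG4 at 11, while SPINK7 and CALCA, which are on none of the lists, were at 1 and 2. The other members ranked, DPPA3, ZP3 and OOEP, were at 2642, 3712 and 6242. The other listed genes also ranked lower, down to SOHLH2 at 10106. Since the limit of 30 counts was set on this library, ZP2, GDF9 and MOS entered only through their counts there. Their ranks are therefore a description and not a test. The marker sums of other cell types in male replicate 4 lay within those of the other libraries. The cumulus sum was 12.2 CPM against 5.38 to 32.7 CPM, the sperm sum 2.15 CPM against 0.291 to 16.1 CPM and the inner cell mass sum 986 CPM against 560 to 1076 CPM. Single genes weighed heavily in the first 2 sums. FSHR gave 7.47 CPM of the cumulus sum in male replicate 4 and 27.3 CPM of the highest one, in female replicate 1. TNP1 gave 11.3 CPM of the highest sperm sum, in female replicate 4. The part of these cell types in the values of male replicate 4 was not tested.

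**Figure D5:**
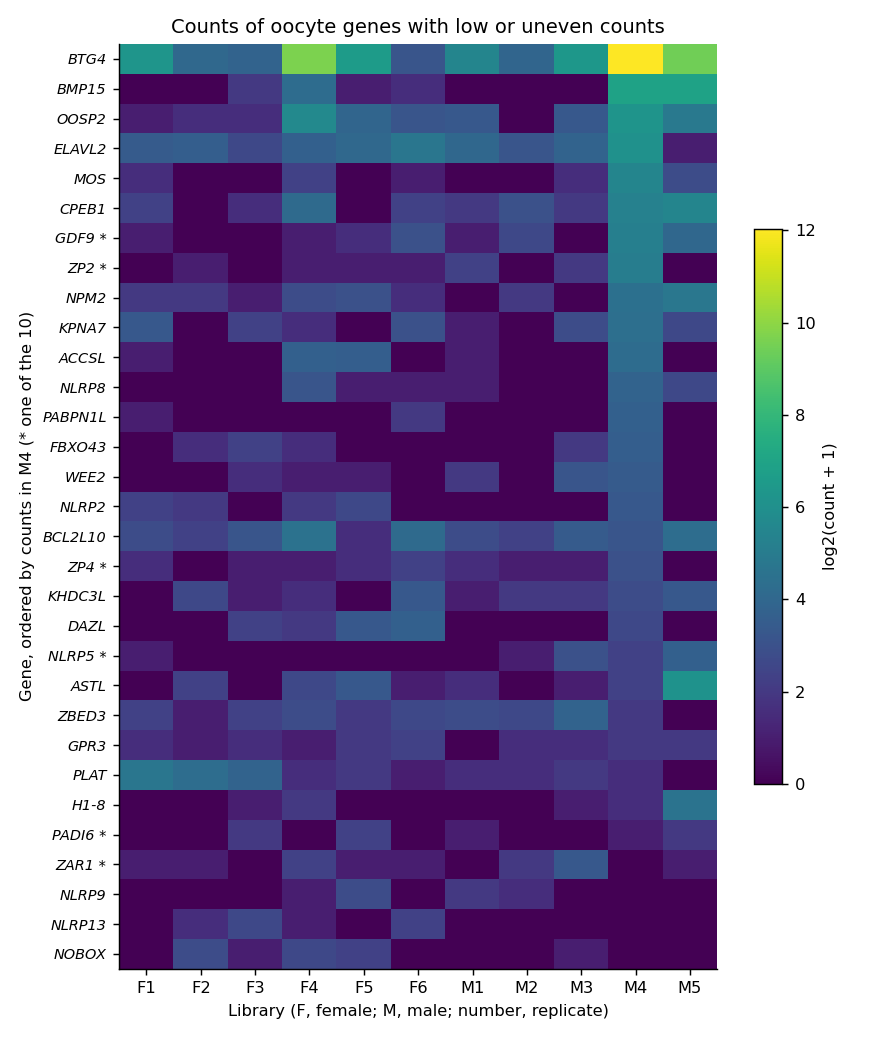
Counts, as log2 of the count plus 1, of the 29 members and listed genes that were dropped by the filter but exceeded 3 counts in some library, and of BTG4 and ELAVL2, with 1 column per library and the genes ordered by their counts in male replicate 4 (M4). Most rows are dark, near 0 counts, in most libraries, while M4 holds 4178 counts of BTG4, 36 of GDF9 and 33 of ZP2.

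For DPPA3, OOEP and ZP3, the members with the highest mean CPM, the genes with the most similar pattern were sought by the Pearson correlation of log2 CPM over the 11 libraries. The points share libraries and depths, and the values are a description. Nearest to DPPA3 were LOC100336734 (r = 0.959), KLHL24, an adaptor of a ubiquitin ligase (r = 0.936), and SPIC (r = 0.933), an ETS-family transcription factor that is also on the inner cell mass marker list. Nearest to OOEP were PPIP5K2, an inositol pyrophosphate kinase (r = 0.972), TLK2, a chromatin assembly kinase (r = 0.943), and NKAPL (r = 0.937). ZP3 had UBE3D (r = 0.902), the glypican GPC5 (r = 0.889) and the sorting nexin SNX7 (r = 0.875) nearest to it. No member was among these 9 genes. Between members, OOEP and DPPA3 had r = 0.640 over the 11 libraries and r = 0.360 without male replicate 5, which was lowest in both. OOEP and TLE6, which encode subunits of one complex, had r = -0.19, and r = 0.615 without male replicate 5.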

How the data were processed

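RNA-seq of 6 female and 5 male pools of bovine expanded blastocysts was analysed. The SMART-Seq HT PLUS kit had been used for the libraries. It primes on poly(A) and amplifies full-length cDNA by PCR without molecular identifiers. After trimming with fastp 0.20.0 and alignment to ARS-UCD2.0 with STAR 2.7.10b, the authors assigned reads to genes with featureCounts and deposited raw counts, which are whole numbers that were not normalized. Groups and replicates follow the sample labels, and a replicate is a pool. The limit of 3 counts covers counting error only, while the intervals of fold changes take in the spread between pools.

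The fit used edgeR 4.0.16 in R 4.3.3. The function filterByExpr, given the sexes as groups, kept 12802 of 32637 genes, which were scaled with TMM factors and tested by edgeR's quasi-likelihood with Benjamini-Hochberg adjustment, male against female, with the first number of the library name (1 to 3) as a block. The study used the collection week as a covariate, and whether this number is the week is not known. Log2 CPM used a prior count of 2. Low genes and single values used python 3.11.15, numpy 2.4.6, pandas 2.3.3 and scipy 1.17.1. Coordinates come from RefSeq (ARS-UCD2.0), which holds 30271 of the symbols. The fit and the permutation test were tested on simulated data.

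The members, lists and tests were chosen with earlier results of these data known. Named were all members, the 5 listed genes with the highest mean CPM and any called, the 3 tested genes most correlated with each of 3 members, and annotated genes within 2000 bases of a member. TAF10, BMP15, MOS, ELAVL2, SPINK7, CALCA and the listed genes named for their counts are exceptions picked once their values had been seen. Alternatives were DESeq2 1.42.0, RLE factors, no filter, no replicate block, a limit of 10 counts or counts scaled to the smallest library for the genes above the limit in every library, and leaving out each library. Added after seeing the data were the permutation tests without each library and within library numbers, that scaling for the number of genes in each library, and the highest library by CPM from totals.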

Additional observations from a re-analysis of the deposited data

Results flagged for a closer look

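The values of 27 groups (a gene in one sex) were checked for a library far from the others of its group. Dixon's criterion at 95% was used, which chance meets in about 1 of 20 groups when values are normally distributed. Several groups hold genes with few counts, to which that rate need not apply. The number of values that met it is thus not read as an excess. The criterion was met by 6 values. In male replicate 4, GDF9 was at 2.86 CPM (36 counts), with the next male at 0.727 CPM, ZP2 was at 2.62 CPM (33 counts), with the next male at 0.331 CPM, and BTG4 was at 332 CPM (4178 counts), with the next male at 32.8 CPM. In female replicate 4, BTG4 was at 109 CPM (796 counts), with the next female at 9.71 CPM, and ZAR1 was at 0.550 CPM, which is 4 counts, with the next female at 0.109 CPM. In male replicate 5, TLE6 was at 7.85 CPM (162 counts), with the next male at 2.65 CPM. The cause of these values was not tested.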

How the results depend on the processing

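No alternative called any of the 4 tested members by sex or by library number, and the 4 genes above 3 counts in every library were 4 under each alternative run. The adjusted p for sex in edgeR or DESeq2 ran from 0.666 to 0.980 for DPPA3, 0.395 to 0.833 for OOEP, 0.663 to 0.994 for TLE6 and 0.406 to 0.835 for ZP3 over the alternatives. The estimate of DPPA3 turned in 5 of 15 (without female replicate 4, -0.03, or 6, -0.07, and without male replicate 1, -0.03, 3, -0.09, or 4, -0.18, in a range from -0.18 to 0.32), and that of TLE6 in 1 (without male replicate 5, -0.18, in a range from -0.18 to 0.78). With no replicate block the sex-biased genes of the whole table numbered 326, and no member's call changed. No finer pairing was made, since replicate numbers of females and males name pools and pair nothing in the labels. DESeq2 called 655 sex-biased genes and 90 genes by library number, and without the filter on low counts these were 743 and 658, where the other oocyte genes had 1 sex-biased call, SOHLH2 (log2 fold change -0.91, adjusted p = 0.0719 from edgeR), and BTG4, BMP15, OOSP2 and SOHLH2 were called by library number. Without one library in turn they ran from 95 (without male replicate 3) to 364 (without male replicate 5) and from 0 to 1. Low members with an exact permutation p under 0.05 numbered 1 with the library number as a replicate block, and without one library they ran from 1 to 2, with 2 in the sets without male replicate 1 or 3, where GDF9 joined NLRP5. A planned order of the members per kilobase was not run for want of exon lengths. With 3 counts worth up to 0.413 CPM, presence below that level was not detectable in the shallowest library.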

Other observations

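Among the other oocyte genes, several transcription and decay factors were counted in every library. SOHLH2, a helix-loop-helix factor of early oogenesis, was at 30.2 ± 22.6 CPM in the female libraries (mean ± SD, n = 6) and 13.0 ± 6.56 CPM in the male ones (n = 5), with a log2 fold change of -0.92 and a 95% interval from -2.21 to 0.36. CNOT6L, a deadenylase of the CCR4-NOT complex that BTG4 recruits, was at 25.0 ± 6.07 CPM in the female libraries (mean ± SD, n = 6) and 19.6 ± 6.09 CPM in the male ones (n = 5), without the unevenness of BTG4. NLRP14 was the one listed relative of NLRP5 above 3 counts in every library, at 1.41 ± 0.692 CPM in the female libraries (mean ± SD, n = 6) and 2.40 ± 1.38 CPM in the male ones (n = 5). NOBOX, a homeobox factor of the oocyte, exceeded 3 counts in 3 of 6 female libraries, at most with 6 counts, and in 0 of 5 male libraries, and NLRP13 did so in 2 female and 0 male libraries with at most 5 counts. These genes were picked after their values were seen. None of the first 3 was called by sex in the filtered edgeR fit, where NOBOX and NLRP13 had too few counts. With every gene of at least 1 count in the fit, SOHLH2 was called (adjusted p = 0.0719 from edgeR), and NOBOX (adjusted p = 0.414 from edgeR) and NLRP13 (adjusted p = 0.457 from edgeR) were not. The SOHLH2 estimate was -0.91 in that fit and -0.92 in the filtered one, with standard errors of 0.30 and 0.59. DESeq2 did not call SOHLH2 (adjusted p = 0.385 from DESeq2).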
